A study of Mus musculus with 5 samples.

Results

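Cell cycle and DNA replication genes were described in 5 single-cell clones of Ocy454, a mouse cell line with osteocyte features. The set held 38 gene symbols, listed by function as S-phase or mitotic genes, and a probe set was taken where the platform's gene symbol matched. Of these, 37 were measured among 23185 named genes: 23 mitotic genes, 13 S-phase genes and Ccnd1, the cyclin D1 gene of early G1. Ccnb1 is not analysed here. Total RNA was measured on 1 Affymetrix array per clone, so the number of arrays limits the precision. The labels describe a screen of 37 such clones for Sost, the gene of the Wnt inhibitor sclerostin, from which those with high or low expression were taken forward. The high-Sost group held clones 12H and 15H, and the low-Sost group held clones 4L, 9L and 24L. The clones of both groups came from the same line, received no treatment, and were grown for 7 days at 37 °C in alpha-MEM medium with fetal bovine serum and a supplement written AA in the labels. Each array is thus a different clone, and the spread within a group holds both clone and culture differences. The labels name no growth rate or cell density.

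Dividing cells make the mRNAs of the cell cycle in waves. E2F factors switch on the genes of DNA replication around the G1 to S transition, among them the MCM helicase that opens the double helix and the enzymes that make deoxynucleotides. Genes of mitosis are held down in G1 by the DREAM complex and switched on in G2 by B-MYB and FOXM1, and their promoters often carry a CHR element and CCAAT boxes. Osteocytes in bone are embedded in matrix and do not divide, whereas cell lines such as Ocy454 are propagated in culture.

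Values are RMA expression on the log2 scale, in which a difference of 1 is a doubling, and they can be compared between clones for one gene but not between genes. The array medians over named genes lay between 4.13 and 4.16. A background level was set at the 95th percentile of 1350 olfactory and vomeronasal receptor genes, which these cells are not thought to express. It ran from 3.37 to 3.56 over the clones, and all 37 members were above it in every clone. Of 8 osteocyte markers, Dmp1 and Phex were above it in 12H and 15H and in no low-Sost clone, and Mepe and Fgf23 were above it in no clone. The other 4, Sost, Pdpn, Dkk1 and Cd44, were above it in all clones. Dkk1 read 3.46 to 3.93 in the low-Sost clones against 6.71 in 12H and 8.17 in 15H. Pdpn went the other way, with 8.97 to 9.20 in the low-Sost clones against 8.35 in 12H and 8.06 in 15H. Sost itself read 3.78 to 4.08 on these arrays, so the group names rest on the submitters' screen. Of 8 blood and endothelial markers, 6 were at or below background in all clones, and Cd68 read 5.27 to 6.97. Of 9 muscle, fat and cartilage markers, 5 were above background in all clones and 3 were at or below it in all. Among them Sox9 read 7.02 to 7.95. Of 6 measured osteoblast markers, Sp7 and Ibsp set clone 4L apart, at 2.68 and 2.24, against at least 7.05 and 8.35 in the other clones. Alpl did so too, at 6.21 in 4L against at least 10.355. Col1a1 and Col1a2 were lowest in 4L by less, at 10.35 and 9.66 against 10.67 and 10.24 in 9L. Bglap was lowest in 24L, at 3.45 against 3.74 in 4L and 4.18 in 9L, and it read 6.03 in 12H and 5.62 in 15H.

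The mitotic genes were low in clone 4L and high in clone 12H. Each gene's value was set against its own mean over the 5 clones, and the median of these deviations over the 23 mitotic members was -0.62 in 4L, -0.01 in 15H, 0.08 in 24L, 0.23 in 9L and 0.43 in 12H. Clone 4L was the lowest of the 5 clones for 22 of the 23 members, and Ttk was the exception. Among the 7807 genes with a mean of 6 or more, which include all 37 members, 4L was lowest in 24.7%. Clone 12H was the highest for 18 members, against 23.3% of those genes, 9L for 4 and 24L for 1. These counts describe the clones and carry no test, since each clone has 1 array. In bulk samples, fewer cycling cells and less of these mRNAs per cell cannot be told apart.

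**Figure D1:**
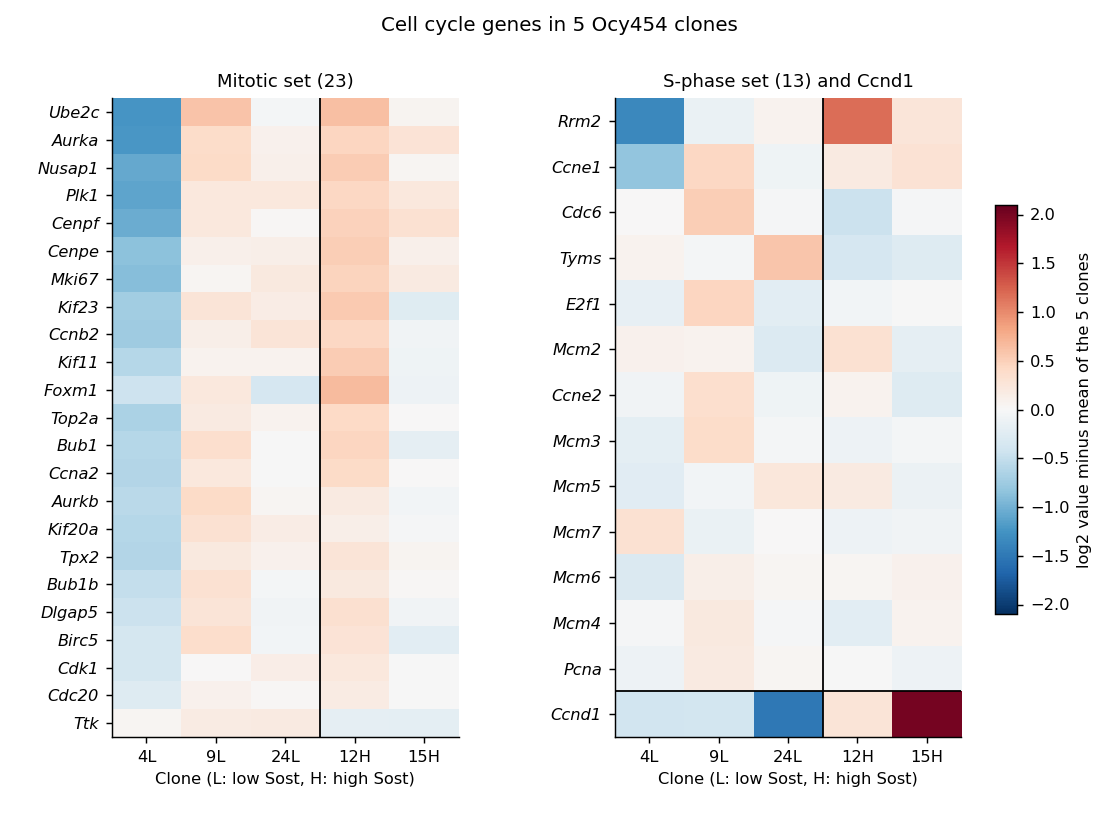
Deviation of each of the 37 members (vertical axis, grouped into mitotic, S-phase and cyclin D1 genes) from its own mean over the 5 clones (horizontal axis), in log2 units by colour. The 4L column is below the mean for 22 of the 23 mitotic genes, and the S-phase block shows no clone with such a column.

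Ube2c, Aurka and Nusap1 spanned the widest ranges of the mitotic set. Ube2c, the ubiquitin-conjugating enzyme of the anaphase-promoting complex (APC/C), read 7.33 in 4L, 9.17 in 9L, 8.54 in 24L, 9.20 in 12H and 8.62 in 15H. Aurka, the centrosomal Aurora A kinase, read 6.44, 8.06, 7.76, 8.12 and 7.96 in the same order of clones. Clone 4L lay below every other clone for both genes, and the other 4 clones spanned 0.67 for Ube2c and 0.36 for Aurka. Against the median of the other 4 clones, both genes were 2.96-fold lower in 4L. Nusap1, a microtubule-binding protein of the spindle, read 7.14 in 4L, 8.63 in 9L, 8.33 in 24L, 8.75 in 12H and 8.26 in 15H, a 2.53-fold gap. These 3 genes lie on chromosome 2, whose genes as a whole were shifted by -0.04 in 4L.

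The promoters of the 3 most variable mitotic members are shown from RefSeq on GRCm38.p6, from 250 bases before the transcription start to 50 after it. Capitals mark the CHR word TTTGAA, the CCAAT box word CCAAT and the E2F words TTTGGCGC, TTTCGCGC and TTTCCCGC, each searched on both strands. The Ube2c promoter lies at chr2:164769679-164769978 on the plus strand, that of Aurka at chr2:172370521-172370820 on the minus strand and that of Nusap1 at chr2:119618048-119618347 on the plus strand.
Ube2c: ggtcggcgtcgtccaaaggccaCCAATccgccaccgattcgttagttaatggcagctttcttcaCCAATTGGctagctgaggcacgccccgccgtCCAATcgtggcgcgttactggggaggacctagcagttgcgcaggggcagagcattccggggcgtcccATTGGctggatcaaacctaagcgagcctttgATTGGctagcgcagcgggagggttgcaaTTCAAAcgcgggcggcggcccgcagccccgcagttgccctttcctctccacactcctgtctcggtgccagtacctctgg
Aurka: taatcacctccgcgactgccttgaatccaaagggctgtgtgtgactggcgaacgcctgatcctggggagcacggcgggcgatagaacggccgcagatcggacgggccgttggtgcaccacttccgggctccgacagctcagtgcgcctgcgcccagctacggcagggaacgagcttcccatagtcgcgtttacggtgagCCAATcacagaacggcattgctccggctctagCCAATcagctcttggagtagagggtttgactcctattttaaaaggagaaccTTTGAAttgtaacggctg
Nusap1: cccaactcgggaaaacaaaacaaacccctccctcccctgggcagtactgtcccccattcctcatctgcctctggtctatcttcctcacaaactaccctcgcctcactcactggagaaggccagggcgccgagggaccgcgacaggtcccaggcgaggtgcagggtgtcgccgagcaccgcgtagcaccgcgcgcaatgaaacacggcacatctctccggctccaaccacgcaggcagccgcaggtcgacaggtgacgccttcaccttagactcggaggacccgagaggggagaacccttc
The Ube2c window holds 1 CHR word, on the opposite strand 29 bases before the start, and 6 CCAAT words, of which the pair at -186 and -183 overlap. The Aurka window holds 1 CHR word 33 bases after the start and 2 CCAAT words. None of the words is in the Nusap1 window. A match is a description of the letters and does not show that a factor binds there. Whether these words go with a gene's order of clones was not tested.

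The other mitotic kinases were also lowest in 4L, except Ttk. Plk1, the polo-like kinase of mitotic entry and spindle assembly, read 6.79 in 4L, 8.12 in each of 9L, 24L and 15H, and 8.32 in 12H. Clone 4L was 2.52-fold below the median of the other clones for Plk1. Cdk1, the kinase that drives mitosis with the B cyclins, read 8.43, 8.81, 8.95, 9.03 and 8.79 in 4L, 9L, 24L, 12H and 15H, so 4L was again lowest, but by only 0.45 against the median of the other clones. Ttk, the spindle checkpoint kinase MPS1, read 7.06 in 4L, 7.18 in 9L, 7.21 in 24L, 6.83 in 12H and 6.82 in 15H. Ttk was the mitotic member with its lowest values in 12H and 15H. Aurkb, the kinase of the chromosomal passenger complex, and the checkpoint kinases Bub1 and Bub1b were lowest in 4L, by 1.60-, 1.70- and 1.52-fold against the median of the other clones.

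The genes of chromosomes, spindle and cytokinesis were all lowest in 4L. Mki67, whose protein Ki-67 coats mitotic chromosomes, read 7.63 in 4L, 8.56 in 9L, 8.73 in 24L, 8.99 in 12H and 8.72 in 15H. Top2a, the topoisomerase that untangles sister DNA, read 8.71, 9.56, 9.45, 9.79 and 9.38. For both genes 4L was below all other clones, which lay within 0.42 of each other. Cenpf, a kinetochore protein, read 5.74 in 4L, 7.01 in 9L, 6.80 in 24L, 7.26 in 12H and 7.10 in 15H. Cenpf lies on chromosome 1, whose genes were shifted by -0.26 in 4L, less than the -1.32 of Cenpf against the median of the other clones. The motor proteins Kif11, Kif20a, Kif23 and Cenpe were 0.69 to 0.98 lower in 4L than that median. Among the remaining spindle and chromosome genes, the difference was -0.48 for Birc5, the survivin of the passenger complex, -0.76 for Tpx2, an activator of Aurora A, and -0.54 for Dlgap5, a spindle assembly factor.

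The cyclins, the APC/C activator and the transcription factor of the set were lowest in 4L too, with ranges of 0.44 to 1.18. Ccna2 and Ccnb2, cyclins of S phase to mitosis and of mitosis, spanned 1.01 and 1.18 over the clones. Cdc20, which activates the APC/C, spanned 0.44 and was 1.25-fold lower in 4L. Foxm1, the activator of G2 and mitotic genes, read 7.82 in 4L, 8.47 in 9L, 7.89 in 24L, 8.91 in 12H and 8.14 in 15H. Foxm1 thus placed 24L near 4L, whereas most mitotic members placed 24L near 15H. Chromosome 6, which holds Foxm1, was shifted by 0.30 in 12H and by -0.16 in 24L.

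Within each Sost group the clones differed for mitotic genes. Clone 12H was above 15H for all 23 members, by a median of 0.39, where 47.3% of genes with a mean of 6 or more had that order. Clone 9L was above 24L for 16 members and below it for 5, with a median difference of 0.16. Between the groups, 24L and 15H were the closest pair: 24L was higher for 16 members and lower for 6, with a median difference of 0.03. Clones 9L and 12H differed by a median of -0.12, with 12H higher for 18.

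**Figure D2:**
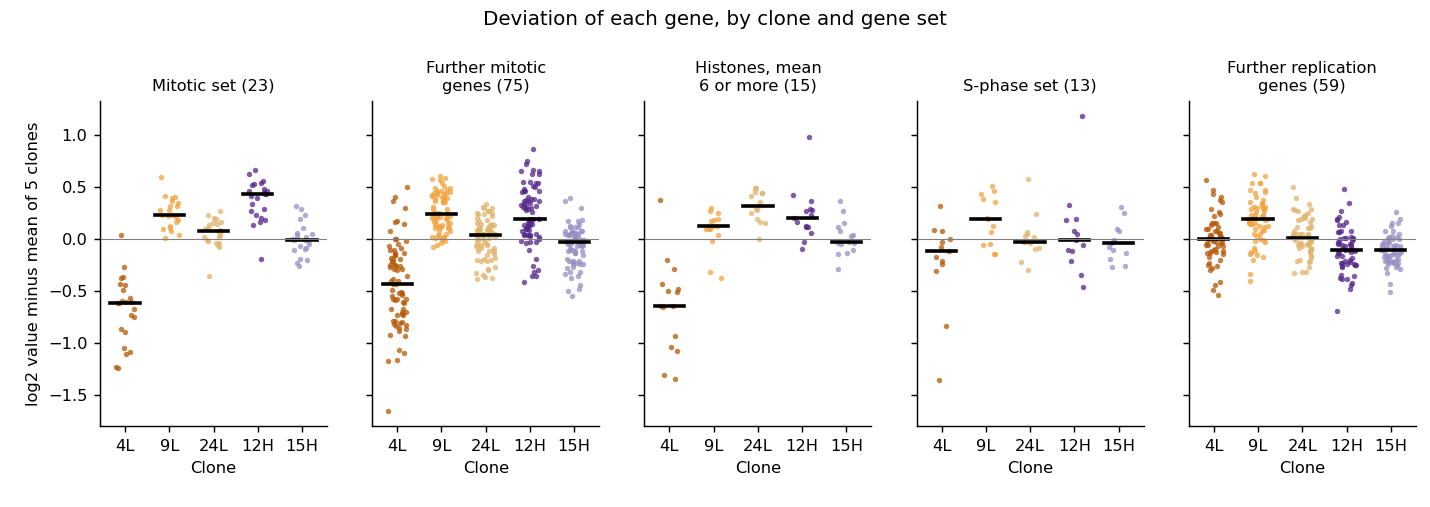
Deviations from the 5-clone mean in log2 units (vertical axis) by clone (horizontal axis) for the mitotic and S-phase members, further mitotic and replication genes and histone genes, with each point a gene and the bar its median. The mitotic median runs from -0.62 in 4L to 0.43 in 12H, and the S-phase median from -0.11 in 4L to 0.19 in 9L.

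The S-phase genes had smaller median deviations than the mitotic genes in every clone but 15H. The median deviation of the 13 members was -0.11 in 4L, -0.04 in 15H, -0.03 in 24L, -0.01 in 12H and 0.19 in 9L. Clone 9L was the highest for 8 of the 13 members, against 20.0% of genes with a mean of 6 or more, and 4L was the lowest for 6. The median gap of 4L to the median of the other 4 clones was -0.12 for S-phase members and -0.76 for mitotic members. The difference between the sets was not tested.

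The MCM helicase genes varied within 0.41 to 0.62 over the clones. Mcm2 read 9.85 in 4L, 9.83 in 9L, 9.47 in 24L, 10.09 in 12H and 9.57 in 15H. Mcm5 read 9.46, 9.64, 9.94, 9.88 and 9.57 in the same order. Clone 4L was thus second highest for Mcm2 and lowest for Mcm5. Mcm7 read 10.68 in 4L, 10.21 in 9L, 10.38 in 24L, 10.25 in 12H and 10.28 in 15H, which made 4L the highest clone. Mcm3 and Mcm6, both on chromosome 1 with its shift of -0.26 in 4L, deviated there by -0.21 and -0.31 from their own means over the clones. Mcm4 spanned 0.41. Mcm2 is on chromosome 6, shifted by 0.30 in 12H, and Mcm5 on chromosome 8, shifted by 0.22 in 12H and -0.21 in 9L.

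Among the other replication genes, Rrm2 differed most between clones. Rrm2, the regulated subunit of ribonucleotide reductase, read 6.35 in 4L, 7.56 in 9L, 7.78 in 24L, 8.88 in 12H and 7.95 in 15H. Its range of 2.53, or 5.79-fold, exceeded that of every mitotic member, with 4L lowest and 12H highest as in most of that set. Tyms, the thymidylate synthase, had another order, with 9.13 in 4L, 9.01 in 9L, 9.63 in 24L, 8.70 in 12H and 8.79 in 15H. Pcna, the sliding clamp of the polymerases, spanned 0.30, with 11.69 in 4L, 12.00 in 9L, 11.84 in 24L, 11.79 in 12H and 11.70 in 15H. Cdc6, which loads the MCM helicase, read 7.97 in 4L, 8.48 in 9L, 7.94 in 24L, 7.51 in 12H and 7.94 in 15H. For Cdc6, 12H was the lowest clone and 9L the highest.

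The regulators of S-phase entry were highest in 9L. E2f1, the activator of replication genes, read 7.92 in 4L, 8.55 in 9L, 7.87 in 24L, 8.04 in 12H and 8.08 in 15H. Ccne1, a cyclin E that partners Cdk2 at the start of S phase, read 5.30, 6.56, 6.03, 6.33 and 6.43. Ccne1 was 2.12-fold lower in 4L than the median of the other clones. Ccne2, the other cyclin E, read 8.30 in 4L, 8.73 in 9L, 8.30 in 24L, 8.45 in 12H and 8.12 in 15H, a range of 0.62. Only Rrm2 and Ccne1 of the 13 S-phase members were at least 0.5 lower in 4L than that median, against 18 of the 23 mitotic members and 10.5% of genes with a mean of 6 or more. At least 1 lower in 4L were these 2 S-phase genes and 6 mitotic members, against 3.39% of those genes.

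**Figure D3:**
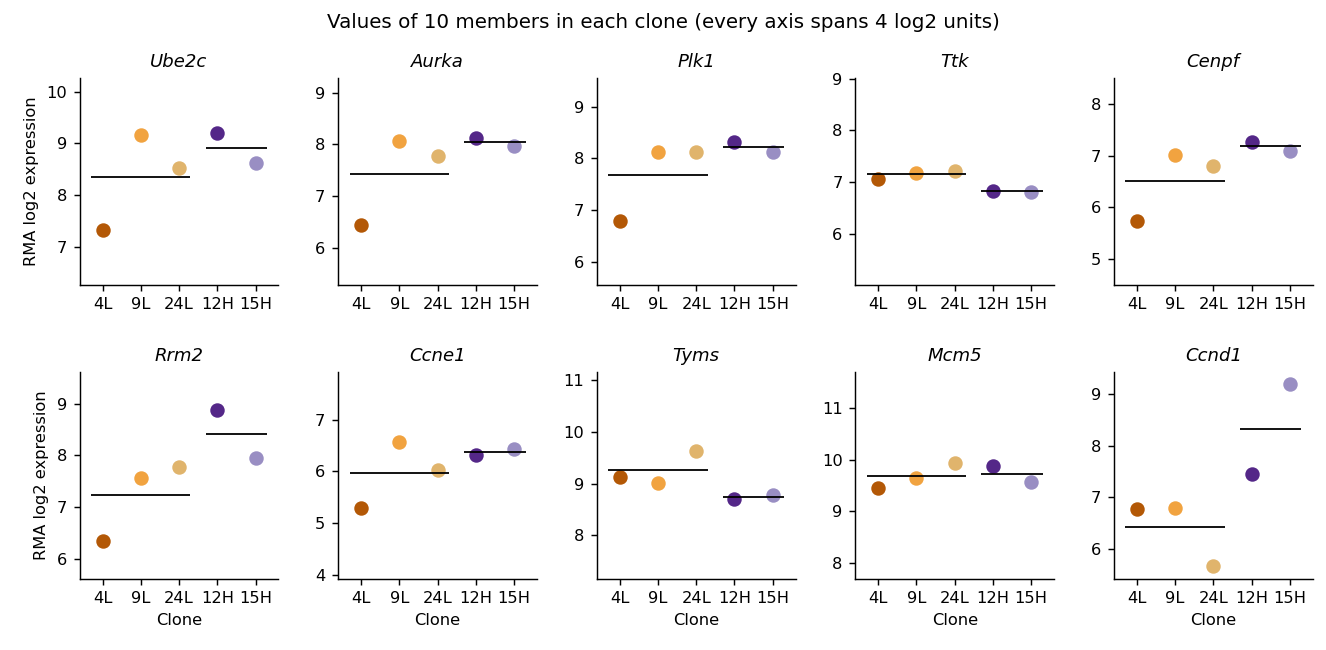
Expression on the log2 scale (vertical axis) of 10 members in each clone (horizontal axis), with each point 1 array in its clone's colour and lines at the means of the low-Sost and high-Sost clones. Aurka, Ube2c and Plk1 lie lowest in 4L, Ttk lies lowest in 12H and 15H, and Ccnd1 lies highest in 15H at 9.19.

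The promoters of the 3 most variable S-phase members are shown for comparison with those of the mitotic genes. Rrm2 lies at chr12:24708004-24708303 on the plus strand, Ccne1 at chr7:38107441-38107740 on the minus strand and Cdc6 at chr11:98907901-98908200 on the plus strand. Mcm5, at chr8:75109259-75109558 on the plus strand, was added after its values were seen, because it holds overlapping E2F words.
Rrm2: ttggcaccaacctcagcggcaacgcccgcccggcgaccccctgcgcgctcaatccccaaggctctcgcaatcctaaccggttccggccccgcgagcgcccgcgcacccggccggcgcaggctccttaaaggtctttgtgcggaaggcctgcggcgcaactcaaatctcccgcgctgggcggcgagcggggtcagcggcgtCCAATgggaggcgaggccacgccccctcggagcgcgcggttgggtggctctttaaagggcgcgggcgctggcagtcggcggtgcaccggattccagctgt
Ccne1: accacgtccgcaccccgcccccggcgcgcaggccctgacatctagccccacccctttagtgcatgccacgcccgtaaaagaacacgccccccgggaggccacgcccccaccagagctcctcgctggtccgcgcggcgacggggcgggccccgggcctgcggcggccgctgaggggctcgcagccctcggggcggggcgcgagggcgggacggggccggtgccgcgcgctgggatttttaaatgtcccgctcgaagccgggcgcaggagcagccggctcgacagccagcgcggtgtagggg
Cdc6: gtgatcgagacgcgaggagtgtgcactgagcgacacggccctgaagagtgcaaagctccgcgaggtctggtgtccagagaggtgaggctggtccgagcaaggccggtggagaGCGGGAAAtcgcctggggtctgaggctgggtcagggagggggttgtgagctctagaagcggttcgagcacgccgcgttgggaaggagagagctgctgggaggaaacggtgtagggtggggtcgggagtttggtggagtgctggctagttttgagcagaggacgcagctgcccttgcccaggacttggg
Mcm5: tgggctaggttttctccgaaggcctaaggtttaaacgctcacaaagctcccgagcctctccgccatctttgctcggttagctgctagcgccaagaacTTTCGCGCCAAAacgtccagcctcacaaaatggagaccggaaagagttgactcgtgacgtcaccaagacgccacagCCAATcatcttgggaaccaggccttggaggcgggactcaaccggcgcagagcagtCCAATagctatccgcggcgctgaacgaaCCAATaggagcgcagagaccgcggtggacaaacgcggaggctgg
The Rrm2 window holds 1 CCAAT word 50 bases before the start and no CHR or E2F word, and none of the words is in that of Ccne1. That of Cdc6 holds 1 E2F word on the opposite strand 138 bases before the start. In Mcm5 the E2F words at -153 and -149 overlap, 1 on each strand, and 3 CCAAT words follow. Of the 37 members, 28 have a promoter in the RefSeq table, 17 mitotic and 11 S-phase. The CHR word occurred in 13 of the 17 mitotic windows (76.5%) and in 1 of the 11 S-phase windows (9.09%), against 17.9% of all 32851 promoters of the same length. The CCAAT word occurred in 88.2% and 63.6%, against 37.4% of all. An E2F word occurred in 1 mitotic and 5 S-phase windows (5.88% and 45.5%), against 1.84% of all.

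The design sets the high-Sost clones against the low-Sost clones. For the cell cycle genes, 0 of the 37 members passed limma's moderated test at an adjusted p of 0.05, and 0 of all 23185 genes passed (0.0%). At an unadjusted p under 0.05 there was 1 member, Ttk, lower in the high-Sost clones, where 3.07% of all genes were higher and 2.71% lower. Among genes with a mean of 6 or more, 4.38% were higher and 5.21% lower at that p. The unmoderated test also gave 0 members after adjustment. Adjusted p over the members ran from 0.623 for Ttk to 1.00 for Birc5, with Benjamini-Hochberg adjustment over all genes. With 2 clones against 3, intervals were wide, and a p that misses the threshold does not show that the groups are alike.

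Mitotic genes were higher in the high-Sost clones by a median of 0.30, with 22 of 23 differences above 0, against 51.0% of genes with a mean of 6 or more. This difference rested on 4L: without it the median was 0.03, with 15 members above 0 and 8 below. Without 12H the median was 0.08, and without 15H it was 0.55. The high and low clones were separate without overlap for 1 mitotic member in each direction, Cenpf and Ttk, where 12.9% of genes with a mean of 6 or more had all high-Sost clones above and 13.5% all below. Cenpf averaged 7.18 ± 0.12 (SD, n = 2) in the high-Sost clones and 6.52 ± 0.68 (SD, n = 3) in the low-Sost clones, which differ by 0.67 (SE 0.46, limma adjusted p = 0.737). The difference was 0.28 without 4L.

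Ttk went the other way and did not rest on 1 clone. It averaged 6.82 ± 0.01 (SD, n = 2) in the high-Sost clones and 7.15 ± 0.08 (SD, n = 3) in the low-Sost clones, and the difference was -0.33 (SE 0.06, 95% interval -0.50 to -0.16, limma adjusted p = 0.623). With a clone left out in turn the difference stayed between -0.38 and -0.30. Chromosome 9, which holds Ttk, was shifted by 0.14 in 24L and -0.08 in 15H, and with chromosome medians subtracted the difference was -0.23 and its unadjusted p was no longer under 0.05. In that setting 2 of the 37 members, Ccnd1 and Tyms, were under it, where 7.36% of all genes were. Mki67, the proliferation marker, differed by 0.54 (SE 0.41, 95% interval -0.62 to 1.71), Aurka by 0.62 (SE 0.58) and Ube2c by 0.57 (SE 0.66). Without 4L those of Mki67, Aurka and Ube2c were 0.21, 0.13 and 0.06. Without 9L that of Aurka was 0.94, and that of Ube2c ran up to 0.98 with each clone left out.

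S-phase genes had a median difference of -0.09, with 5 of the 13 above 0 and 8 below, while their mean was 0.02, of the opposite sign through Rrm2. The median was between -0.15 and 0.02 with each clone left out, and it was above 0 only without 9L. Rrm2 and Tyms were the members whose groups did not overlap, 1 higher and 1 lower. That was 7.69% in each direction, against 12.9% higher and 13.5% lower among genes with a mean of 6 or more. Rrm2 averaged 8.42 ± 0.66 (SD, n = 2) in the high-Sost clones and 7.23 ± 0.77 (SD, n = 3) in the low-Sost clones, and the difference was 1.19 (SE 0.60, 95% interval -0.54 to 2.92), or 2.28-fold. Without 12H it was 0.72 and without 4L 0.75. Tyms averaged 8.75 ± 0.06 (SD, n = 2) in the high-Sost clones and 9.26 ± 0.33 (SD, n = 3) in the low-Sost clones. Its difference was -0.51 (SE 0.22), and it was -0.32 without 24L. Neither passed, both with a limma adjusted p of 0.737. The MCM genes differed by -0.16 to 0.12, and Mcm7, the lowest of them, by -0.03 without 4L and -0.26 without 9L. Cdc6 differed by -0.41 (SE 0.25), by -0.23 without 9L, by -0.19 without 12H and by -0.62 without 15H.

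**Figure D4:**
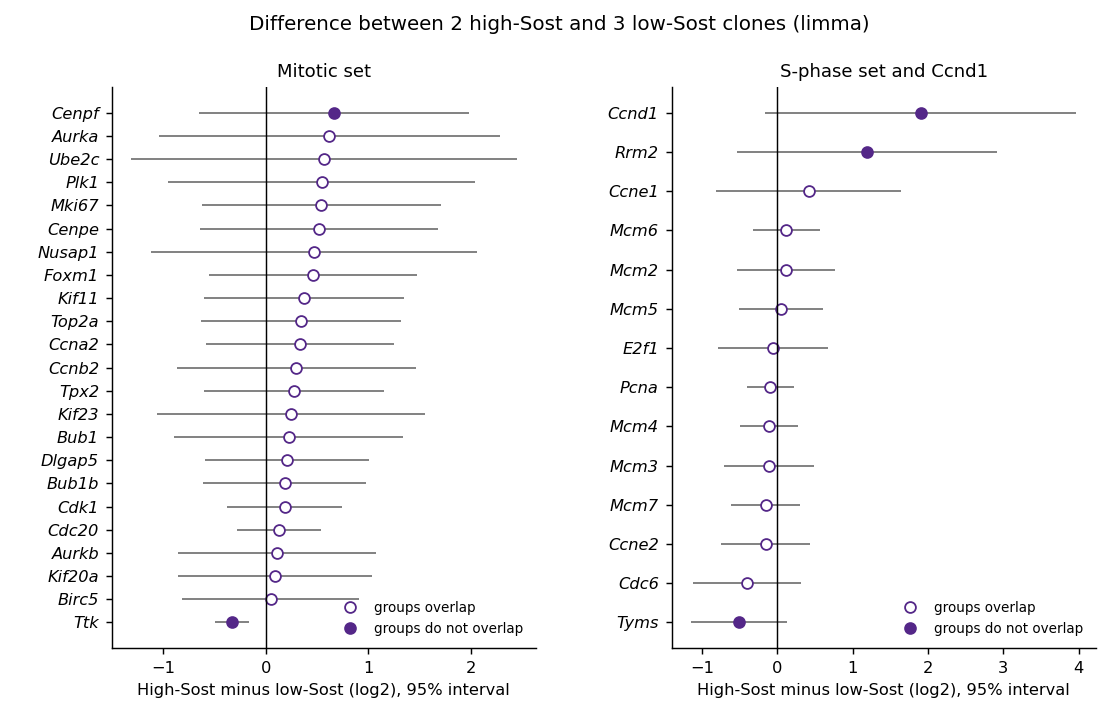
High-Sost minus low-Sost difference in log2 units (horizontal axis) of each member (vertical axis), with points for the fitted difference and bars for limma's 95% interval. All mitotic members but Ttk lie above 0, and all intervals but that of Ttk include 0.

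Ccnd1 spanned the widest range of the 37 members. This cyclin links growth signals to Cdk4 and Cdk6 in G1, and it read 6.78 in 4L, 6.80 in 9L, 5.68 in 24L, 7.46 in 12H and 9.19 in 15H. The high-Sost clones lay above the low-Sost clones without overlap, and 15H was 1.72 above 12H. The difference was 1.90 (SE 0.72, 95% interval -0.17 to 3.97, limma adjusted p = 0.737), or 3.74-fold. It was 1.04 without 15H and 2.76 without 12H. Its order of clones differed from that of the mitotic set, with 15H highest and 24L lowest.

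Further genes of DNA replication were lower in the high-Sost clones in most cases, though none passed. Of 59 measured, 48 had a difference below 0, with a median of -0.18, and -0.22 without 4L. With limma 0 passed after adjustment, and 10 had an unadjusted p under 0.05, all lower. That was 16.9%, against 2.71% of all genes and 5.21% of genes with a mean of 6 or more. For 19 genes (32.2%), all high-Sost clones were below all low-Sost clones, against 13.5% of genes with a mean of 6 or more. The list was drawn up with earlier results of these data known. Dscc1, a subunit of a PCNA loader that serves sister chromatid cohesion, read 6.90, 7.07 and 6.82 in the low-Sost clones 4L, 9L and 24L, and 5.84 and 6.02 in the high-Sost clones 12H and 15H. The SE of its difference was 0.11 and the limma adjusted p was 0.547, and its chromosome 15 was shifted by -0.30 in 12H and by 0.23 and 0.22 in 4L and 9L. Prim1, the catalytic primase subunit, read 9.58, 9.53 and 9.64 in the low-Sost clones and 9.28 and 9.19 in the high-Sost clones, a difference of -0.35 (SE 0.05, limma adjusted p = 0.572). Dut, the dUTPase that keeps uracil out of DNA, differed by -0.51 (SE 0.07), with 7.34, 7.30 and 7.21 against 6.69 and 6.86. For these 3 genes every high-Sost clone was below every low-Sost clone. Gins1, a subunit of the replicative helicase, read 7.40 in 9L and at most 6.74 in the other clones. Over the clones, the replication list had its highest median deviation in 9L, at 0.20, as the S-phase members did. Clone 9L was highest for 33 of its genes (55.9%, against 20.0% of genes with a mean of 6 or more). The median deviation was -0.001 in 4L, 0.01 in 24L, -0.10 in 12H and -0.11 in 15H. The median difference of this list without 9L is not given here, so how far it rests on 9L was not tested.

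Further mitotic genes, read on the same arrays, were also low in 4L. Over 75 measured genes the median deviation was -0.44 in 4L and 0.24, 0.04, 0.19 and -0.03 in 9L, 24L, 12H and 15H. Clone 4L was lowest for 51 (68.0%, against 24.7% of genes with a mean of 6 or more). Like the replication list, this one was drawn up with earlier results of these data known. High minus low had a median of 0.13, with 55 above 0, and it was -0.03 without 4L. None passed with limma. At an unadjusted p under 0.05 the lower share was 4.0%, between 2.71% of all genes and 5.21% of genes with a mean of 6 or more. This share was 3 genes, all lower in the high-Sost clones. They were Zwilch, a kinetochore checkpoint protein (-0.66, SE 0.09), Cenpk of the inner kinetochore (-0.70, SE 0.12) and Trip13, an ATPase that disassembles checkpoint complexes (-0.62, SE 0.15). Zwilch lies on chromosome 9, shifted by 0.14 in 24L and -0.08 in 15H. Cenpk lies on chromosome 13, shifted by 0.29 in 4L and by -0.09 in both 12H and 15H. Psrc1, a spindle protein, read 4.53 in 4L against 6.13 to 6.93 in the other clones, and Pbk, a mitotic kinase, read 6.81 against 8.01 to 8.63. The CHR word was in 39 of their 64 promoters (60.9%), against 7 of 47 (14.9%) for further replication genes.

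Regulators of G1 and brakes on the cycle held differences in both directions. Of the G1 regulators 5 were above 0 and 9 below, and without 4L these counts were 2 and 12. Of the brakes 12 were above 0 and 12 below, and without 4L these counts were 13 and 11. With limma 0 of 14 G1 regulators and 0 of 25 brakes passed. At an unadjusted p under 0.05 were 1 G1 regulator, lower (7.14%), and 5 brakes, 2 higher (8.0%) and 3 lower (12.0%). Over all genes 3.07% were higher and 2.71% lower, and among genes with a mean of 6 or more 4.38% and 5.21%. The groups did not overlap for 3 brakes higher (12.0%) and 7 lower (28.0%), against 12.9% and 13.5% of genes with a mean of 6 or more. Cdkn1a, the p21 inhibitor of cyclin-dependent kinases, read 10.45, 10.47 and 10.12 in the low-Sost clones and 11.23 and 11.10 in the high-Sost clones. Both high-Sost clones were thus above all others for Cdkn1a. Btg2, an antiproliferative factor, had the opposite order, with 5.71, 5.26 and 5.58 against 4.17 and 4.56. Gas1, a growth arrest gene, read 7.71, 6.75 and 8.06 against 6.32 and 6.21. Lin37, a DREAM subunit, differed by -0.34 (SE 0.09), and Cdkn2b, the p15 inhibitor of Cdk4 and Cdk6, was highest in 4L at 9.14 and lowest in 12H at 7.15. Myc, a growth-promoting factor on chromosome 15, read 9.58, 9.19 and 9.61 in 4L, 9L and 24L against 8.78 and 8.81, a difference of -0.66 (SE 0.16). Cdk4 and the phosphatase gene Cdc25a differed by -0.09 and -0.12, and Cdk6 read 6.75 in 9L and 7.28 to 8.12 elsewhere. Mybl2, the gene of B-MYB, was lowest in 4L at 7.20, against 8.08 to 8.68 in the other clones.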

How the data were processed

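The authors deposited log2 expression per probe set for 5 arrays of biotin-labelled total RNA. Tools in the submitters' processing notes are affy 1.36.1, RMA and R 2.15.1, without a stated role. RMA brings arrays to a common distribution, which removes a shift shared by most genes. How the chip was defined or filtered, and its build, is not given in the sources used here. Among 25206 probe sets, 14333 hold a value repeated between arrays and 1430 hold 1 value throughout. The platform table and RefSeq (GRCm38.p6) named 23185 and 2021 unnamed ones were left out.

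High-Sost and low-Sost clones were compared with limma 3.58.1 in R 4.3.3 (lmFit, eBayes; 3 residual and 0.70 prior degrees of freedom), with two-sided p-values adjusted over 23185 genes (Benjamini-Hochberg) at 0.05. P-values measure the spread between clones. With 2 and 3 clones, exact permutation cannot reach a p below 0.1. Chromosome shifts are medians over genes with a mean of 6 or more. The fit was tested on simulated data. Alternatives covered the filter, normalization, variance model, threshold, chromosome medians and each clone left out. Figures used matplotlib 3.10.9.

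Members and lists were chosen with earlier results of these data known. By rule, all 5 values are given for 21 members: a panel, and per set the 4 smallest p and the 4 widest ranges. From each further list came the 3 smallest p and the 2 widest ranges. Clone 4L was singled out after its values were seen.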

Additional observations from a re-analysis of the deposited data

How the results depend on the processing

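Over all genes 0 passed at an adjusted p of 0.05, against 2 with arrays shifted to 1 median, 2 with chromosome medians subtracted and 3 at an adjusted p under 0.1; 0 members were among them. Over every alternative, for the 21 members recomputed, limma's adjusted p was 0.352 or higher. Of 273 recomputed member differences, 8 changed sign. Several of the alternatives, such as the filter and the unmoderated test, leave a difference as it was, so they could not change a sign. With chromosome medians subtracted, the difference of Mcm2 was -0.017 and that of Mcm5 -0.13, against 0.11 and 0.04. With each clone left out in turn, the difference ran from -0.15 to 0.37 for Mcm2, -0.11 to 0.20 for Mcm5, -0.18 to 0.16 for E2f1 and -0.33 to 0.011 for Ccne2. The mitotic median difference ran from 0.03 without 4L to 0.55 without 15H, and the S-phase median from -0.15 to 0.02. Without 12H or 15H a lone high-Sost clone takes its spread from the low-Sost group. No paired analysis was possible because the labels give the clones no shared numbers. With 1 array per clone, clone and culture cannot be told apart, and groups of 2 and 3 are too small to look for outlying clones. All members were above background in every clone, and whether signal level affected the size of their differences was not tested.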

Other observations

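The replication-dependent histone genes, whose mRNAs accumulate in S phase, had a median deviation from the 5-clone mean of -0.64 in 4L, 0.12 in 9L, 0.32 in 24L, 0.20 in 12H and -0.03 in 15H over the 15 of 34 genes with a mean of 6 or more. Clone 4L was the lowest for 13 of the 15 (86.7%, against 24.7% of genes with a mean of 6 or more). Over all 34 its median was -0.28, and it was the lowest for 21 (61.8%, against 19.2% of all genes). Histone copies are near-identical, so single genes cannot be told apart, and many lie on chromosome 13, whose genes were shifted by 0.29 in 4L. With limma, 0 of the 34 passed after adjustment and 4 had an unadjusted p under 0.05, all lower in the high-Sost clones (11.8%, against 2.71% of all genes). None of these 4 was among the 15. The high-Sost minus low-Sost median over the 15 was 0.07, and -0.09 without 4L.

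Among 18 genes of the APC/C, which marks mitotic proteins for destruction, and its partners, 0 passed with limma. At an unadjusted p under 0.05 were 1 higher and 1 lower (5.56% each), against 3.07% of all genes higher and 2.71% lower. Among genes with a mean of 6 or more, 4.38% were higher and 5.21% lower. Cdc27, an APC/C subunit, read 8.82, 8.88 and 8.97 in the low-Sost clones 4L, 9L and 24L, and 9.13 and 9.12 in the high-Sost clones 12H and 15H, a difference of 0.24 (SE 0.05). Anapc13, another subunit, differed by -0.47 (SE 0.15), and Fzr1, the activator that works from late mitosis into G1, by 0.42 (SE 0.17). Fbxo5, an APC/C inhibitor, read 7.38 to 8.03 in 4 clones and was 1.12 lower in 4L than the median of those, and Ccnf, a cyclin of a ubiquitin ligase, read 5.80 against 6.78 to 7.28. Clone 4L was thus the lowest for both.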
